A study of Mus musculus with 10 samples.

Results

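Sox7, Sox17 and Sox18 form the SoxF subgroup of the Sox transcription factors, and their 3 rows were followed among the 38924 genes of each count file. Their rows were found by gene identifier and GENCODE M21 symbol, without using any measured value, although the family was chosen with earlier results of these data known. RNAseq had been performed on 10 samples of mouse embryonic stem cells (mESCs) that were differentiated and sorted at day 5. All samples came from 1 line, Foxa2-hCD4, whose Foxa2 locus also drives a truncated human CD4, and an antibody against that surface protein sorts living cells by Foxa2 expression. Foxa2+ CM (3 samples) and Foxa2- CM (3 samples) were cardiac mesoderm cells positive for Kdr and Pdgfra that were sorted as positive or negative for human CD4. The samples labelled Flk1+ high (2 samples) came from the same cardiac cultures and were sorted on Kdr, the gene of the receptor Flk1; the study describes them as haematopoietic mesoderm. These cultures had been reaggregated at day 2 with Activin A at 8 ng/ml, BMP4 at 1 ng/ml and VEGF at 5 ng/ml. Endoderm (2 samples) was sorted as human CD4-positive from separate cultures given Activin A at 75 ng/ml and no BMP4 or VEGF, so endoderm differs from the other groups in culture as well as in cell type, and these cannot be told apart. The labels do not say whether replicates were separate cultures, and p-values then measure only the spread between these samples.

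SoxF proteins bind DNA through a high-mobility-group domain and share a C-terminal region that activates transcription. Sox17 is known for its requirement in definitive endoderm, and later for roles in arterial endothelium and in fetal blood stem cells. Sox7 is expressed in parietal and primitive endoderm and in the haemogenic endothelium from which the first blood cells arise, and Sox18 is known for its roles in vascular and lymphatic endothelium. In vessels the 3 factors can stand in for each other in part.

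In mm10, Sox7 (ENSMUSG00000063060) occupies positions 63943673 to 63950732 of chromosome 14 (plus strand), with 3299 exonic bases. Sox17 (ENSMUSG00000025902) occupies positions 4490931 to 4497354 of chromosome 1 (minus strand), with 4772 exonic bases. Sox18 (ENSMUSG00000046470) occupies positions 181669836 to 181671640 of chromosome 2 (minus strand), with 1620 exonic bases. The genes are therefore on 3 different chromosomes, and no stretch of 50 bases, the length of a read, is shared between their exons. Sox17 overlaps Gm37587, a processed transcript annotated on the opposite strand, over 804 exonic bases, and 15% of the read-length windows of Sox17 lie in both. Gm37587 has no row in the files, and the library kit does not mark strand, so reads of the pair cannot be told apart there.

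Counts on genes totalled between 10926284 and 17470126 per sample, so that 3 counts, taken as the smallest detectable signal, stood at 0.169 to 0.28 CPM (counts scaled to a common library size with edgeR's TMM factors). These floors cover counting error only. Replicates of every group differed by more than sampling noise, as chi-square values divided by their degrees of freedom ran from 3.72 to 21.5 over the replicate pairs. The genes of the sort were measured first. Foxa2 stood at 186 and 183 CPM in endoderm, at 20, 16 and 3.5 CPM in Foxa2+ CM, at 2.54, 0.873 and 0.903 CPM in Foxa2- CM and at 0.69 and 0.788 CPM in Flk1+ high. Kdr was at 554 and 593 CPM in Flk1+ high, at 354 to 440 CPM in the CM samples and at 6.24 and 9.95 CPM in endoderm. Pdgfra was at 201 to 306 CPM in the CM samples, at 34.3 and 23.8 CPM in Flk1+ high and at 49.9 and 71.6 CPM in endoderm. Foxa2+ CM replicate 3 thus lay near the Foxa2- CM samples in Foxa2, without overlapping them.

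Marker lists were read beside the labels as the summed CPM of their genes. Definitive endoderm genes, which include Foxa2, summed to 1580 to 1710 CPM in endoderm and to 209 to 281 CPM elsewhere. Haemato-endothelial genes summed to 2740 to 3360 CPM in Flk1+ high, to 841 to 1220 CPM in the CM samples and to 81.1 to 137 CPM in endoderm. This list holds Kdr, a gene of the sort, and shares Kdr and Etv2 with the list of upstream factors used further on. Without Kdr the sums were 2180 to 2770 CPM in Flk1+ high, 594 to 788 CPM in the Foxa2+ CM samples, 449 to 792 CPM in the Foxa2- CM samples and 74.8 to 127 CPM in endoderm. Endomucin (Emcn), a gene of this list and a marker of mature venous and capillary endothelium, was at 0 in Flk1+ high. It was also at 0 in endoderm and Foxa2- CM and at a mean of 0.0188 CPM in Foxa2+ CM, so this was not particular to Flk1+ high. Cardiac mesoderm genes, which include Pdgfra of the sort, summed to 734 to 1060 CPM in the CM samples, to 205 to 387 CPM in Flk1+ high and to 134 to 224 CPM in endoderm. Extra-embryonic endoderm genes were low in all groups, with sums of 38.4 to 92.2 CPM in endoderm and 22.7 to 89.5 CPM over the mesoderm samples. Among the 11 genes of this list, transthyretin (Ttr) averaged 1.06 CPM and alpha-fetoprotein (Afp) 0.46 CPM in endoderm. The highest endoderm means of the list were 24.4 CPM for Dab2, 16.8 CPM for Hnf4a and 12.5 CPM for Apob. The samples labelled endoderm also had higher levels of pluripotency genes, with a sum of 572 to 597 CPM against 60.3 to 263 CPM in the mesoderm samples.

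The 3 SoxF genes fell into 2 patterns. Sox17 was highest in endoderm and lowest in Foxa2- CM, whereas Sox7 and Sox18 were highest in Flk1+ high and lowest in endoderm. Sox17 had 1127 and 2121 counts in the endoderm samples, which is 105 and 177 CPM. It stood at 27.7, 23.3 and 19.8 CPM in Foxa2+ CM replicates 1 to 3, at 25.3 and 21 CPM in Flk1+ high and at 4.64, 3.18 and 8.58 CPM in Foxa2- CM. The values of Foxa2+ CM and Flk1+ high overlapped, and those of endoderm and of Foxa2- CM stood apart from them on either side. Sox7 had 2819 and 2703 counts in the Flk1+ high samples, which is 177 and 213 CPM. The 3 Foxa2+ CM samples had 7.97, 15.2 and 42.6 CPM of Sox7, and the 3 Foxa2- CM samples had 8.42, 9.53 and 43.6 CPM. In endoderm Sox7 had 4 and 16 counts, or 0.373 and 1.34 CPM, close to the smallest detectable signal. The CM groups overlapped for Sox7, and each had its highest value in replicate 3. Sox18 stood at 47.9 and 91.8 CPM in Flk1+ high, with 5.92, 8.04 and 13.1 CPM in the Foxa2+ CM samples and 4.15, 3.65 and 17.7 CPM in the Foxa2- CM samples. In endoderm it had 5 and 14 counts, or 0.466 and 1.17 CPM. Its order of groups was that of Sox7, again with overlapping CM groups and the highest CM values in replicate 3. These are bulk samples, in which fewer expressing cells and less RNA per cell cannot be told apart.

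**Figure D1:**
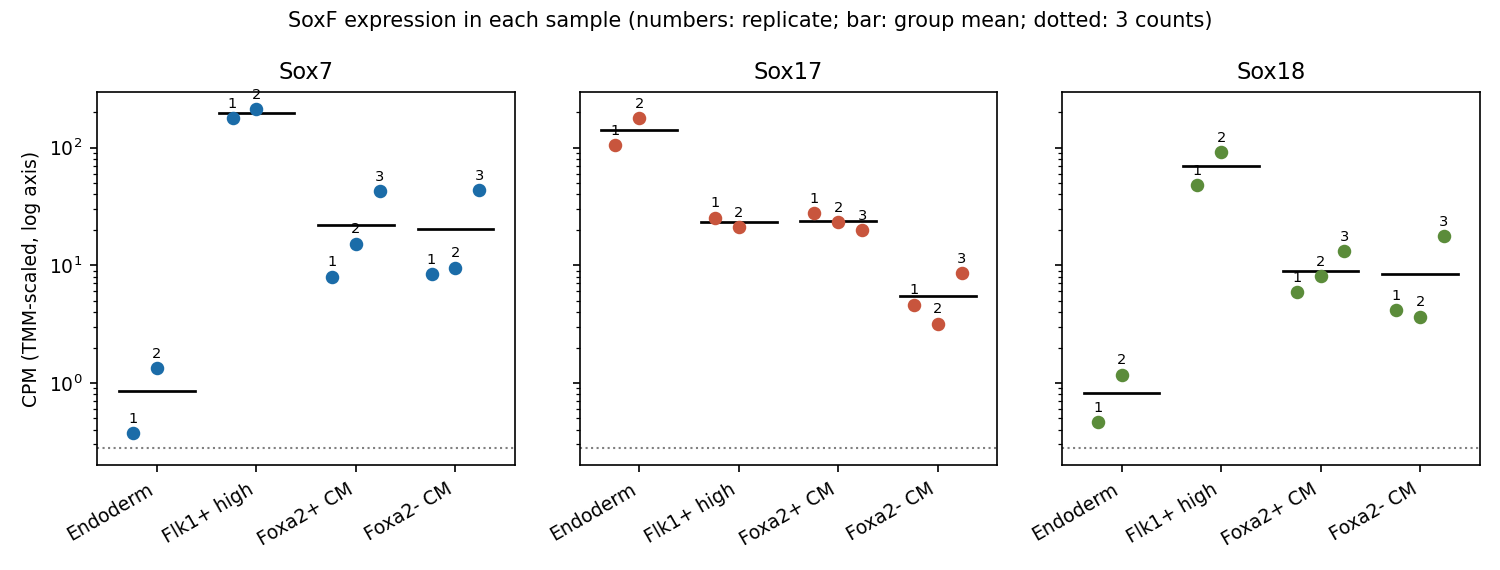
Expression of Sox7, Sox17 and Sox18 in each of the 10 samples in CPM on a log axis, by sorted group; points are samples with their replicate number, bars are group means and the dotted line is the highest value that 3 counts take in any sample. Sox17 peaks in endoderm at 105 and 177 CPM, while Sox7 and Sox18 peak in Flk1+ high and lie at or below 1.34 CPM in endoderm.

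Levels of the 3 genes were compared per length, as RPKM (CPM divided by the exonic length in kilobases). In endoderm Sox17 was at 29.6 ± 10.7 RPKM, Sox7 at 0.259 ± 0.207 and Sox18 at 0.505 ± 0.308 (SD, n = 2). In Flk1+ high Sox7 was at 59.1 ± 7.71 RPKM and Sox18 at 43.1 ± 19.2, whereas Sox17 was at 4.85 ± 0.631 (SD, n = 2). Foxa2+ CM had 6.64 ± 5.54 RPKM of Sox7, 4.95 ± 0.83 of Sox17 and 5.58 ± 2.29 of Sox18 (SD, n = 3), levels that overlapped between the genes. Foxa2- CM had 6.22 ± 6.07 RPKM of Sox7, 1.15 ± 0.585 of Sox17 and 5.24 ± 4.91 of Sox18 (SD, n = 3). Summed over the family, the level was 22.4 and 38.3 RPKM in endoderm, 88.5 and 126 in Flk1+ high, 11.9, 14.4 and 25.2 in Foxa2+ CM and 6.09, 5.81 and 25.9 in Foxa2- CM. The summed level was thus highest in Flk1+ high, and the ranges of the CM groups overlapped each other and that of endoderm.

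The make-up of the sum also differed between the groups. Sox17 made up 98.2% and 97.1% of the summed SoxF level in the endoderm samples and 5.99% and 3.51% in the Flk1+ high samples. Its share was 48.9%, 33.8% and 16.5% in Foxa2+ CM replicates 1 to 3 and 16%, 11.5% and 6.93% in Foxa2- CM replicates 1 to 3. The lowest share in Foxa2+ CM lay just above the highest in Foxa2- CM. Expressed as a ratio of levels per length, Sox17 was 195 and 91.6 times Sox7 in endoderm and 0.0988 and 0.0683 times Sox7 in Flk1+ high. Sox7 and Sox18 stayed closer to each other, with Sox7 at between 0.393 and 1.81 times Sox18 over the 10 samples. The shares depend on the length taken for Sox17. With the 3127 bases of transcript Sox17-201 in place of all exons, a choice made after seeing the data, the mean share of Sox17 was 98.4% in endoderm, 7.06% in Flk1+ high, 42.1% in Foxa2+ CM and 16.4% in Foxa2- CM. The highest density of reads on a member was 0.855 counts per exonic base (Sox7 in Flk1+ high replicate 1). The authors removed duplicate reads, which can hold back the counts of dense genes, and its part in these values was not tested.

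**Figure D2:**
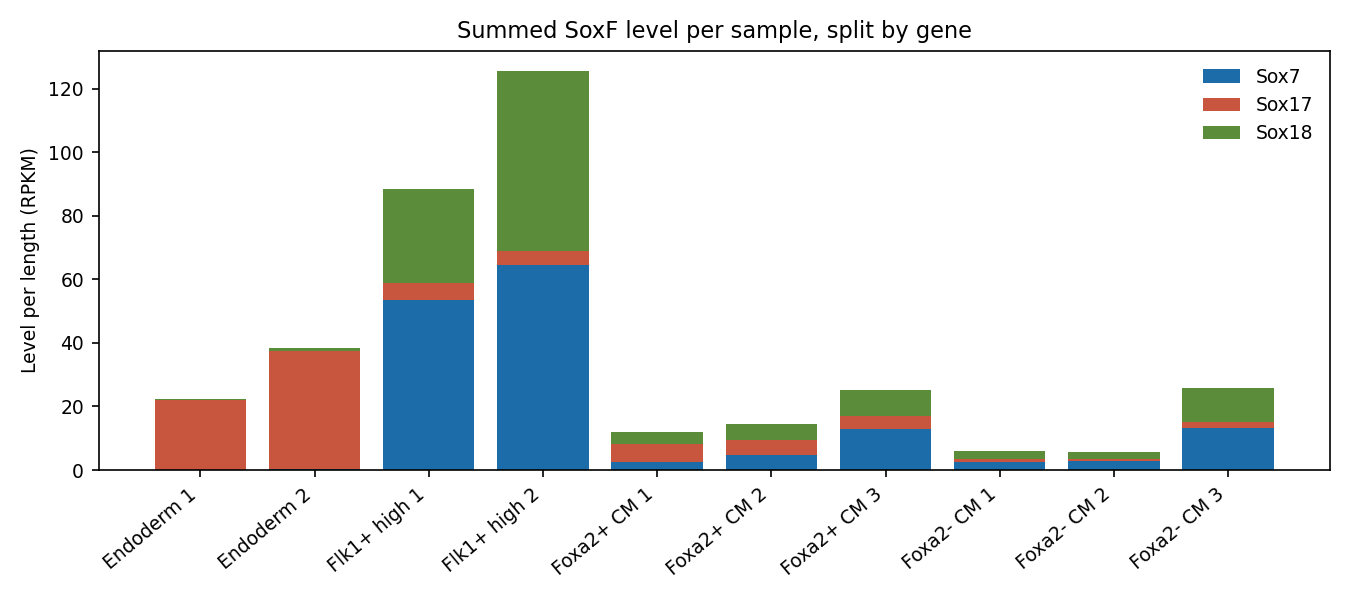
Summed level of the 3 SoxF genes per sample in RPKM, with each bar split into Sox7, Sox17 and Sox18. Endoderm bars are nearly all Sox17 (98.2% and 97.1%), Flk1+ high bars reach 88.5 and 126 RPKM with little Sox17, and the CM samples numbered 3 are the highest of their groups.

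The first comparison asked how the endoderm cells differed from the mesoderm cells, taken as the mean of the 3 mesoderm groups. Sox17 was higher in endoderm by 3.28 on the log2 scale (standard error 0.25, 95% interval 2.71 to 3.86), which is 9.75-fold, and passed edgeR's quasi-likelihood test at a Benjamini-Hochberg adjusted p of 1.27e-05. Sox7 went the other way, with a log2 fold change of -5.66 (standard error 1.18, 95% interval -8.3 to -3.01, edgeR adjusted p = 0.0046), and so did Sox18 with -4.39 (standard error 0.87, 95% interval -6.35 to -2.43, edgeR adjusted p = 0.00361). A gene was called when its adjusted p was under 0.05 and it differed at least 2-fold. All 3 members were called, 1 higher and 2 lower, where 18.5% of the 16180 genes tested were called, 10.6% higher and 7.89% lower. Of all genes tested, 428 had a higher fold change than Sox17, 99 a lower one than Sox7 and 208 a lower one than Sox18. Every endoderm value lay outside the range of the 8 mesoderm samples for each of the 3 genes. The low values of Sox7 and Sox18 rest on few counts, and without Endoderm replicate 1 their adjusted p rose to 0.0587 and 0.0511 while the log2 fold changes were -5.09 and -3.93. Without Endoderm replicate 2 they were -6.89 and -5.23, and both calls held.

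Against each mesoderm group in turn, Sox17 was higher in endoderm by 4.66 on the log2 scale over Foxa2- CM (25.4-fold, edgeR adjusted p = 2.75e-05), by 2.58 over Foxa2+ CM (5.99-fold, adjusted p = 0.00037) and by 2.61 over Flk1+ high (6.09-fold, adjusted p = 0.000872). These comparisons share the endoderm samples. Of all genes tested, 17% were called against Foxa2- CM (9.18% higher in endoderm, 7.81% lower), 18.7% against Foxa2+ CM (10.2% higher, 8.49% lower) and 19.1% against Flk1+ high (11% higher, 8.11% lower). Sox7 was 220-fold lower in endoderm than in Flk1+ high (log2 fold change -7.78, standard error 1.27, edgeR adjusted p = 0.00149) and Sox18 was 83.1-fold lower (log2 fold change -6.38, standard error 0.96, adjusted p = 0.00101). The size of these folds depends on single endoderm samples: the log2 fold change of Sox7 was -7.19 without Endoderm replicate 1 and -9 without replicate 2, and that of Sox18 was -5.9 and -7.2, all with an edgeR adjusted p between 0.0112 and 0.0206. Against the CM groups Sox7 had log2 fold changes of -4.64 (Foxa2+ CM) and -4.55 (Foxa2- CM) (edgeR adjusted p = 0.0165 and 0.0213), and Sox18 of -3.43 and -3.36 (adjusted p = 0.0166 and 0.0216). Those 4 calls against the CM groups were lost without either endoderm sample. The adjusted p reached 0.122 and 0.142 for Sox7 and 0.124 and 0.147 for Sox18 without replicate 1, and lay between 0.0662 and 0.0962 without replicate 2. Without Foxa2+ CM replicate 3 the log2 fold change of Sox7 against Foxa2+ CM was -3.72, and without Foxa2- CM replicate 3 those of Sox7 and Sox18 against Foxa2- CM were -3.34 and -2.22.

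**Figure D3:**
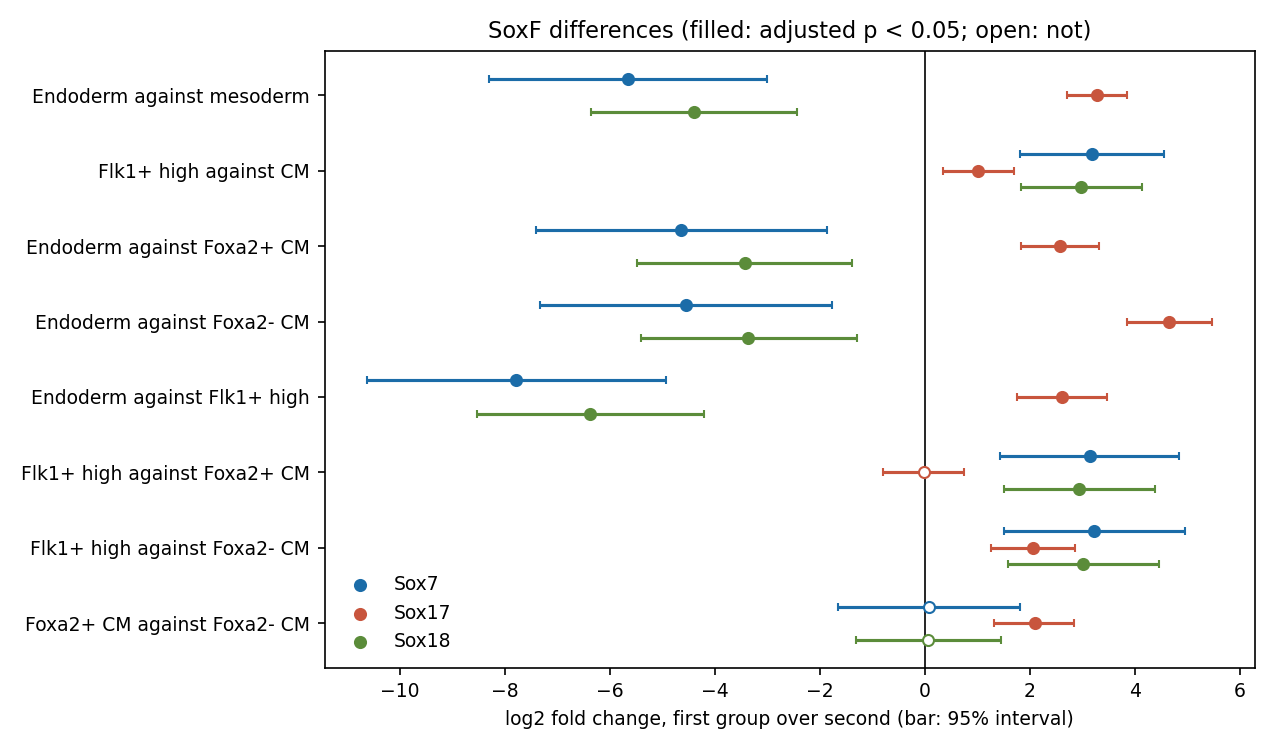
Log2 fold changes of Sox7, Sox17 and Sox18 in the 8 comparisons, first group over second, with 95% intervals; filled points passed at 0.05 after adjustment (edgeR) and open points did not. Sox17 and the pair Sox7 and Sox18 lie on opposite sides of 0 in each comparison with endoderm, and among the CM groups the interval of Sox17 alone excludes 0.

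Genes known to act upstream of SoxF genes or beside them were read in the same comparison. Of the 13 in the list, all tested, 2 were higher in endoderm and 3 lower, and their median log2 fold change was 0.17, against 0 over all genes tested. Nodal, the ligand whose signalling induces endoderm, was higher by 2.23 (standard error 0.54, edgeR adjusted p = 0.00959). Of the single groups, Nodal was called against Flk1+ high alone (3.24, edgeR adjusted p = 0.0145), whose samples had 1.07 and 23.7 CPM. Against Foxa2+ and Foxa2- CM its log2 fold changes were 1.58 and 1.89 (edgeR adjusted p = 0.0971 and 0.0621). Pou5f1, a pluripotency factor that can pair with Sox17 on DNA, was higher by 1.6 (standard error 0.24, edgeR adjusted p = 0.000781) and was called against each group. Kdr, the VEGF receptor, had a log2 fold change of -5.79 (edgeR adjusted p = 9.41e-08). All 3 mesoderm groups were sorted as Kdr-positive, so its place among the 3 lower genes follows from the sort. Etv2, the ETS factor that starts the haemato-endothelial programme, had a log2 fold change of -3.77 (edgeR adjusted p = 4.09e-07). Gata4 was lower too, at -1.16 (edgeR adjusted p = 0.0164). It was called lower against each CM group but not against Flk1+ high (-0.6, edgeR adjusted p = 0.249). The other 8 were not called, among them Eomes and Mixl1, which act in mesoderm and endoderm alike. Eomes averaged 375 CPM in endoderm, 350 and 344 CPM in the CM groups and 143 CPM in Flk1+ high. Mixl1 averaged 229 CPM in endoderm, 208 and 229 CPM in the CM groups and 86.7 CPM in Flk1+ high. Against Flk1+ high alone both were higher in endoderm, by 1.4 and 1.41 (edgeR adjusted p = 0.0127 and 0.00688).

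The definitive endoderm list had 9 of 11 genes higher in endoderm and none lower, with a median log2 fold change of 2.82. Cer1, a secreted antagonist of Nodal, BMP and Wnt ligands, was higher by 7.52 (edgeR adjusted p = 3.69e-08), and the pioneer factors Foxa2 and Foxa1 by 6.25 and 5.73 (adjusted p = 9.62e-06 and 9.41e-08). Foxa2 itself was used to sort these cells. In the extra-embryonic endoderm list, 1 of 10 genes tested was called, the nuclear receptor Hnf4a, which definitive endoderm derivatives express later as well. It was higher in endoderm by 4.05 (standard error 0.7, edgeR adjusted p = 0.00171), at 6.06 and 27.5 CPM in the 2 endoderm samples. The list's median log2 fold change was -0.04. Of 6 basement membrane genes, which parietal endoderm makes in large amounts, none was called higher in endoderm and 3 were called lower. These were Lama1 at -2.76 (edgeR adjusted p = 0.00046), Col4a2 at -1.4 (adjusted p = 0.00511) and Sparc at -1.13 (adjusted p = 4.4e-05). The other 3 differed by less than 2-fold and in both directions. Lamb1 and Lamc1 were higher by 0.7 and 0.65 (edgeR adjusted p = 0.00132 and 0.00335), and Col4a1 stood at -0.64 (adjusted p = 0.0279).

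Genes described as direct or close targets of SoxF factors in endothelium moved in both directions. Of 9 tested of 10, 2 were higher and 3 lower in endoderm, with a median log2 fold change of -0.52. The mesoderm groups differed in this. Against each CM group alone 3 were higher in endoderm (Cldn5, Prox1 and Notch4) and 0 lower. Against Flk1+ high 0 were higher and 6 lower. Cldn5 was close to the smallest detectable signal, with 7 and 15 counts (0.652 and 1.25 CPM) in endoderm and 0 to 4 counts in the CM samples. Prox1, the lymphatic factor that Sox18 is known to switch on, averaged 75.6 CPM in endoderm, 96.6 CPM in Flk1+ high and 16.7 and 24.8 CPM in Foxa2+ and Foxa2- CM, and it was higher in endoderm than in mesoderm by 1.14 (edgeR adjusted p = 0.0442). Prox1 is also a gene of liver and pancreas progenitors. Notch4 was higher by 1.12 (edgeR adjusted p = 0.00202). Cdh5 (VE-cadherin) was lower by a log2 fold change of -4.35 (standard error 1.39, edgeR adjusted p = 0.0345), Rasip1, a regulator of vessel lumens, by -2.36 (adjusted p = 0.0117) and Notch1 by -1.47 (adjusted p = 0.000353). Of the single groups, these 3 genes were called lower against Flk1+ high alone. Vcam1 was not tested, with a highest group mean of 0.0707 CPM. In the haemato-endothelial list, 15 of 19 genes tested, Kdr of the sort among them, were lower in endoderm and none higher, with a median of -4.35. Erg, Tal1 and Gata2, transcription factors of endothelium and blood, had log2 fold changes of -8.29, -6.94 and -6.63 (edgeR adjusted p = 0.00106, 8.32e-05 and 6.31e-07). Of the 12 cardiac mesoderm genes 8, Pdgfra of the sort among them, were lower and none higher, with a median of -1.79. They were led by Hand2 at -8 (edgeR adjusted p = 0.000666), Nkx2-5 at -6.17 (adjusted p = 4.71e-06) and Hand1 at -4.9 (adjusted p = 4.56e-05). Against single groups, 7 of the 12 were lower than in Foxa2+ CM and 10 lower than in Foxa2- CM, with none higher. Against Flk1+ high 4 were lower and 1 was higher, Pdgfra by 1.06 (edgeR adjusted p = 0.00365).

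The second comparison set Flk1+ high against the mean of the CM groups, all from cardiac cultures. Sox7 was higher in Flk1+ high by 3.19 on the log2 scale (standard error 0.61, 95% interval 1.82 to 4.56, 9.1-fold, edgeR adjusted p = 0.00477) and Sox18 by 2.98 (standard error 0.51, 95% interval 1.83 to 4.13, 7.9-fold, adjusted p = 0.00282). The lowest Flk1+ high value exceeded the highest of the 6 CM values for both genes, and without Foxa2- CM replicate 3 the log2 fold change of Sox7 was 3.79. Sox17 was higher by 1.02 (standard error 0.3, 95% interval 0.35 to 1.69, edgeR adjusted p = 0.0334), which is 2.02-fold and hardly over the 2-fold limit. All 3 members were called higher, where 11.9% of genes tested were called, 5.46% higher and 6.46% lower. The call of Sox17 held in 1 of the 8 fits that left out a sample, the fit without Foxa2- CM replicate 3; in the other 7, without any of the remaining CM or Flk1+ high samples, its adjusted p was between 0.0543 and 0.141. It also fell just under the 2-fold limit with upper-quartile scaling (0.97), without a filter on low counts (0.99), among genes averaging 50 counts or more (0.98) and with Endoderm left out of the model (0.99). Of all genes tested, 185 had a higher fold change than Sox7, 221 than Sox18 and 1065 than Sox17.

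The difference in Sox17 was unequal over the CM groups. Flk1+ high exceeded Foxa2- CM by 2.06 on the log2 scale (4.16-fold, standard error 0.36, edgeR adjusted p = 0.00372). Against Foxa2+ CM the log2 fold change was -0.02 with a 95% interval of -0.79 to 0.74 (edgeR adjusted p = 0.969), an interval that lies within 2-fold in both directions. The sign of this small difference turned in the fits without Foxa2+ CM replicate 1 or Flk1+ high replicate 2, at 0.07 in each. Sox7 exceeded Foxa2+ CM by 3.14 and Foxa2- CM by 3.23 (edgeR adjusted p = 0.0166 and 0.016), and Sox18 did so by 2.94 and 3.02 (adjusted p = 0.0102 and 0.00954). Of genes tested, 11.4% were called against Foxa2+ CM (5.17% higher in Flk1+ high, 6.25% lower) and 11.6% against Foxa2- CM (5.24% higher, 6.4% lower). The Sox7 calls against a single CM group were lost without replicate 1 or 2 of that group or without Flk1+ high replicate 2, with an adjusted p of 0.0523 to 0.0681. The Sox18 calls were lost without Flk1+ high replicate 2 (adjusted p = 0.0567 and 0.0551), and that against Foxa2+ CM also without its replicate 1 (adjusted p = 0.0515). Without Foxa2+ CM replicate 3 Sox7 exceeded that group by 4.06, and without Foxa2- CM replicate 3 the differences from Foxa2- CM were 4.44 for Sox7 and 4.15 for Sox18. Without both CM samples numbered 3, an alternative chosen after seeing the data, the log2 fold changes over the CM groups together were 4.24 for Sox7, 1.2 for Sox17 and 3.73 for Sox18 (edgeR adjusted p = 4.77e-05, 0.00849 and 0.000164).

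Of the endothelial SoxF target list, 8 of 9 genes tested were higher in Flk1+ high than in CM and none lower, with a median log2 fold change of 2.36 against 0.02 over all genes. Cldn5, a tight-junction protein of endothelium, was higher by 5.45 (edgeR adjusted p = 0.000161), although it reached only 5.9 and 3.86 CPM in Flk1+ high and had 0 to 4 counts in the CM samples. Cdh5 was higher by 4.18 (edgeR adjusted p = 0.0049), at 158 and 275 CPM in Flk1+ high. Dll4, the Notch ligand of arterial cells, was higher by 3.51 (edgeR adjusted p = 0.000204), at 9.47 and 12.6 CPM. The gene that was not called was Efnb2, an arterial ephrin, at a mean of 232 CPM in Flk1+ high and of 262 and 209 CPM in the CM groups. The haemato-endothelial list, which shares Cdh5 with the target list, had 16 of 19 genes higher and none lower, with a median of 3.1, led by Tie1 at 5.13, the embryonic globin Hbb-bh1 at 4.54 and Cd34 at 4.47 (edgeR adjusted p = 0.00692, 0.0118 and 7.39e-05).

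The lists of endoderm and of upstream factors showed other values in this comparison. Of 11 definitive endoderm genes 2 were higher in Flk1+ high and 3 lower, with a median of -1.26. Hhex, a homeobox gene of both foregut endoderm and blood and endothelial progenitors, was higher by 2.16 (edgeR adjusted p = 0.000198) and Cer1 by 1.6 (adjusted p = 0.00385), the latter at a mean of 2.58 CPM. Gsc was lower at -3.85, Cxcr4 at -2.13 and Epcam at -1.45 (edgeR adjusted p = 0.000482, 0.000382 and 0.000909). In the extra-embryonic endoderm list only Thbd was called, higher by 4.05 (edgeR adjusted p = 0.00514); thrombomodulin, its product, is also made by endothelium. No upstream factor was higher and 2 of 13 were lower, Mixl1 at -1.34 and Eomes at -1.28 (edgeR adjusted p = 0.006 and 0.0128), and the list's median was -0.29. Etv2 stood at 88 and 92.4 CPM in Flk1+ high and at 91.1 to 126 CPM in the CM samples, and was not called. No basement membrane gene was called by edgeR or DESeq2, with a median of 0.2, and 1 of 6 had an unadjusted p under 0.05. Of the cardiac mesoderm genes 5 of 12 were lower and none higher, with a median of -1.17, and Pdgfra, a gene of the sort, led them at -3.11 (edgeR adjusted p = 3.69e-05), followed by Nkx2-5 and Tbx20 at -2.2 and -2.15 (edgeR adjusted p = 0.000306 and 0.00698). Without both CM samples numbered 3, 3 of the cardiac genes and 2 of the extra-embryonic endoderm genes were called, while the target and haemato-endothelial lists again had 8 and 16 genes called.

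The third comparison, Foxa2+ CM against Foxa2- CM, used the 6 CM samples. Sox17 was higher in Foxa2+ CM by 2.09 on the log2 scale (standard error 0.33, 95% interval 1.32 to 2.85), a 4.25-fold difference at an edgeR adjusted p of 0.0118. All 3 Foxa2+ CM values, from 19.8 to 27.7 CPM, lay above all 3 Foxa2- CM values, from 3.18 to 8.58 CPM. Of the 15284 genes tested 3.01% were called, 1.49% as higher and 1.52% as lower in Foxa2+ CM, and 40 had a higher fold change than Sox17. Leaving out 1 sample at a time kept the log2 fold change between 1.82 and 2.59, and the call was lost without Foxa2+ CM replicate 2 or Foxa2- CM replicate 1 (adjusted p = 0.0588 and 0.058). The ratio of Sox17 between samples of the same number was 5.97, 7.34 and 2.31, and that of Foxa2 was 7.89, 18.4 and 3.87, so the samples numbered 3 had the smallest ratio in both genes.

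Sox7 and Sox18 did not pass the test between the CM groups. The log2 fold change of Sox7 was 0.08 with a 95% interval of -1.66 to 1.82 (edgeR adjusted p = 0.98), and that of Sox18 was 0.07 with an interval of -1.32 to 1.46 (adjusted p = 0.977). Both intervals reach past 2-fold in either direction, so a difference of that size was not detectable over this spread. With 1 sample left out the values ranged from -0.84 to 1.31 for Sox7, and no fit passed the threshold. For Sox18 they ranged from -0.3 to 1.23, and it passed without Foxa2- CM replicate 3 (edgeR adjusted p = 0.0402). Sox7 turned negative without Foxa2+ CM replicate 3 or Foxa2- CM replicate 1 or 2, as did Sox18. Without both CM samples numbered 3, Sox18 was higher in Foxa2+ CM by 0.86 (edgeR adjusted p = 0.00442), under the 2-fold limit, Sox7 by 0.4 (adjusted p = 0.179) and Sox17 by 2.69 (adjusted p = 5.75e-26). That fit rests on 2 samples against 2 and was chosen after the values were seen.

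The spread of Sox7 and Sox18 within the CM groups lay mainly between the samples numbered 3 and the others. Sox7 in replicate 3 was 3.68 times the mean of replicates 1 and 2 in Foxa2+ CM and 4.86 times that mean in Foxa2- CM. Sox18 was 1.88 and 4.53 times that mean, whereas Sox17 was 0.776 and 2.19 times. Of the 18 haemato-endothelial genes tested in CM, 9 were at least 1.5-fold higher in replicate 3 in both groups, against 3.19% of all genes tested (487 of 15284), with median ratios of 1.52 in Foxa2+ CM and 2.7 in Foxa2- CM. Tal1 had ratios of 1.99 and 2.5, Fli1 of 2.39 and 2.48, Cdh5 of 2.2 and 18, and the angiopoietin receptor relative Tie1 of 3.67 and 57.4. Etv2 had ratios of 0.849 and 0.831 and Kdr of 1.18 and 1.04. Of the endothelial SoxF targets 3 of 8 were past 1.5-fold in both groups, of the extra-embryonic endoderm genes 1 of 7, and of the other Sox genes 0 of 12. As a list, the extra-embryonic endoderm genes were higher in replicate 3 in Foxa2- CM alone, with median ratios of 11.6 there and 0.975 in Foxa2+ CM. In Foxa2- CM replicate 3, Apob, an apolipoprotein of visceral endoderm, was at 17.4 CPM against a mean of 0.358 CPM in replicates 1 and 2. The endocytic receptor gene Cubn was at 10.8 CPM against 0.932 CPM, and Ttr at 1.86 CPM against 0.031 CPM. In Foxa2+ CM, replicate 3 and the mean of replicates 1 and 2 were 12.2 and 12.5 CPM for Apob. They were 9.76 and 8.73 CPM for Cubn and 1.13 and 0.9 CPM for Ttr. The summed level of this list was 89.5 CPM in Foxa2- CM replicate 3, against 22.7 and 27 CPM in replicates 1 and 2. It was 35.2, 77.6 and 69.2 CPM in Foxa2+ CM replicates 1 to 3, so Foxa2- CM replicates 1 and 2 were the lowest CM samples. Cdh5 reached 43.4 CPM in Foxa2- CM replicate 3 against 158 and 275 CPM in Flk1+ high. The part of cells that express the haemato-endothelial or the extra-embryonic endoderm genes in the values of Sox7, Sox17 and Sox18 was not tested.

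**Figure D4:**
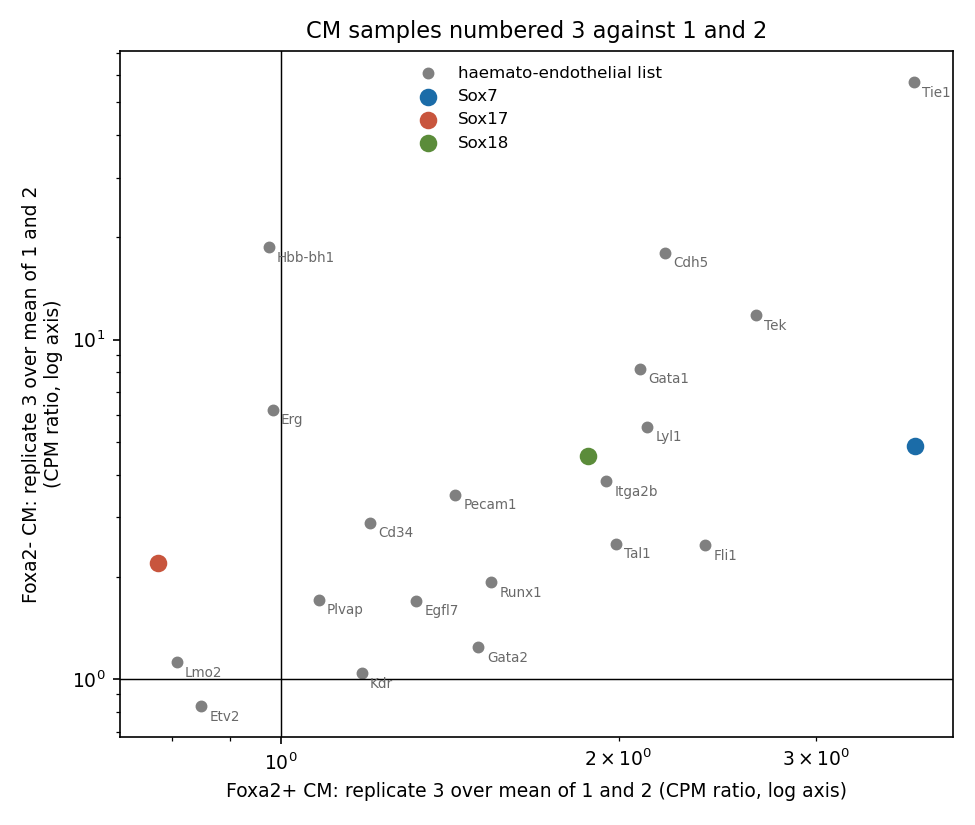
CPM in the CM sample numbered 3 divided by the mean of the samples numbered 1 and 2, for Foxa2+ CM (horizontal) and Foxa2- CM (vertical), both on log axes; grey points are haemato-endothelial genes with counts in all the values compared. Sox7 (3.68, 4.86) and Sox18 (1.88, 4.53) lie with the genes that were higher in both samples numbered 3, while Sox17 (0.776, 2.19) was higher in Foxa2- CM alone.

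The pathway lists were read between the CM groups too. Over all 15284 genes tested 3.01% were called, so lists this short can hold no call without differing from all genes. Of the upstream and partner genes 0 of 13 were called by edgeR, with a median log2 fold change of 0.03, and Etv2, Gata4, Gata6 and Nodal were among them. In the definitive endoderm list Foxa2 itself was higher in Foxa2+ CM by 3.18 (edgeR adjusted p = 0.0353), and the median of the list was -0.07. None of 7 extra-embryonic endoderm genes was called, at a median of 0.81, and none of 6 basement membrane genes, at 0.21. No endothelial target (8 tested, median -0.02) and no haemato-endothelial gene (18 tested, median -0.03) was called either. With the replicate number as a block, 2 haemato-endothelial genes were called, while the genes called in all went from 460 to 756. With both CM samples numbered 3 left out, 1 endothelial target, 5 haemato-endothelial and 4 extra-embryonic endoderm genes were called. That fit called 972 genes in all. At an unadjusted p under 0.05 in edgeR there were 4 upstream genes, 0 extra-embryonic endoderm genes, 2 basement membrane genes, 1 endothelial target and 4 haemato-endothelial genes, and DESeq2 called 1 haemato-endothelial gene and none of the rest. Cardiac mesoderm genes were called in both directions, 3 higher and 3 lower of 12, with a median of -0.51. Tbx5 and Myocd were higher by 1.76 and 1.49 (edgeR adjusted p = 0.0331 and 0.00573), and Mesp1 and Isl1 were lower at -3.1 and -2.69 (adjusted p = 0.00627 and 0.00446).

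The 16 other Sox genes were read beside the SoxF genes, and 14 passed the expression filter (Sox14 and Sox30 did not). In endoderm against mesoderm 5 were higher and 2 lower. Sox2, of the SoxB1 subgroup that acts in pluripotent and neural cells, had the largest rise of these at 4.12 (edgeR adjusted p = 4.71e-07), from a mean of 2.17 to 12.2 CPM in the mesoderm groups to 96.7 CPM in endoderm. Sox21 was higher by 3.17, Sox15 by 1.49, Sox4 by 1.28 and Sox3 by 1.23 (edgeR adjusted p = 3.6e-05, 0.031, 1.6e-05 and 0.0159). Sox2, Sox21 and Sox4 were called higher against each mesoderm group, and Sox15 against Foxa2- CM alone. Sox15 was low in endoderm too, at 9 and 20 counts and a mean of 1.31 CPM. Sox3 was called against Flk1+ high alone (3.52, edgeR adjusted p = 0.000772), where it averaged 1.7 CPM; its mean was 18.9 CPM in endoderm, 29 CPM in Foxa2+ CM (log2 fold change -0.62, not called) and 11 CPM in Foxa2- CM. Sox8 and Sox9, of the SoxE subgroup, were lower at -2.5 and -1.84 (edgeR adjusted p = 0.0015 and 0.000336), and the third SoxE gene, Sox10, was not called at -0.63 (adjusted p = 0.213). Sox8 was lower against each mesoderm group, with 2 and 4 counts in endoderm, near the smallest detectable signal. Its means in the mesoderm groups were 0.817 to 3.11 CPM. Sox9 was lower against the CM groups (-2.77 and -2.66, edgeR adjusted p = 7.4e-05 and 0.000106), while against Flk1+ high, at 6.88 CPM to endoderm's 6.45 CPM, its log2 fold change was -0.08 (edgeR adjusted p = 0.862). The SoxC genes Sox11 and Sox12 and the SoxD genes Sox5, Sox6 and Sox13 were not called. Sox13 missed the 2-fold limit at 0.98 (edgeR adjusted p = 0.00116), and Sox12, at a mean of 103 to 126 CPM in the 4 groups, differed by 0.2. Against single groups Sox13 was called higher over each CM group (1.11 in both, edgeR adjusted p = 0.00191 and 0.0022). Sox6 was called over Foxa2- CM alone (1.35, edgeR adjusted p = 0.0323) and Sox5 over Flk1+ high alone (3.1, adjusted p = 0.0331). Their endoderm means were low, at 1.3 and 1.24 CPM. Sox10 was called lower against Foxa2- CM alone (-1.79, edgeR adjusted p = 0.00793).

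In Flk1+ high against CM, where Sox7 and Sox18 rose by 3.19 and 2.98, the other Sox genes called higher were Sox21 at 1.54 (edgeR adjusted p = 0.0119) and Sox1 at 2.06 (adjusted p = 0.0496), the latter at a mean of 1.42 CPM. Sox3, Sox9, Sox10, Sox2 and Sox8 were lower at -3.44, -2.64, -2.37, -2.06 and -1.33 (edgeR adjusted p = 0.000816, 0.000161, 0.00244, 0.000555 and 0.0154). Sox9 averaged 44.3 and 41.1 CPM in Foxa2+ and Foxa2- CM against 6.88 CPM in Flk1+ high. Between the CM groups, 3 of 12 other Sox genes were higher in Foxa2+ CM, where Sox17 rose by 2.09: Sox6 by 1.93 (edgeR adjusted p = 0.0146), Sox3 by 1.4 (adjusted p = 0.00479) and Sox21 by 1.31 (adjusted p = 0.0346). Sox6 and Sox21 did so from low means, 0.495 and 0.491 CPM in Foxa2- CM. Sox8 was lower in Foxa2+ CM at -1.15 (edgeR adjusted p = 0.0357).

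The genes whose group pattern was most like that of each member were named by a fixed measure, the root mean square difference of the 4 group means of log2 CPM after centring, among the 12131 genes that averaged at least 50 counts. This is a description over 4 groups, and no test was made. For Sox7 they were Fli1 (difference 0.214), Myzap, Ptprb, Oit3 and Lyl1 (0.441). Fli1 is an ETS factor of endothelium and blood, Lyl1 a blood transcription factor and Ptprb the endothelial phosphatase VE-PTP, and Fli1 averaged 183 CPM in Flk1+ high, 21.6 and 23.7 CPM in Foxa2+ and Foxa2- CM and 1.26 CPM in endoderm. For Sox18 they were F2rl3 (difference 0.0763), which encodes a thrombin receptor, Rhoj, a small GTPase of endothelium, Ptpn7, Abi3 and Slc30a10 (0.238). Rhoj averaged 146 CPM in Flk1+ high, 21.9 and 16.7 CPM in the CM groups and 2.14 CPM in endoderm.

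For Sox17 the nearest genes were Shisa6 (difference 0.32), Gpc4, Hnf4a, Hap1 and Prrg4 (0.545). Gpc4, a glypican of the cell surface, averaged 176 CPM in endoderm, 16.6 CPM in Flk1+ high, and in Foxa2+ and Foxa2- CM 22.9 and 6.23 CPM. These were near the means of Sox17 itself, which were 141, 23.2, 23.6 and 5.47 CPM. Hnf4a averaged 16.8 CPM in endoderm and 0.743 to 1.41 CPM in the mesoderm groups. Its Foxa2- CM mean came mostly from replicate 3, with 37 counts (2.09 CPM), as replicates 1 and 2 had 1 count each. With both CM samples numbered 3 left out of the group means, an alternative chosen after seeing the data, Hnf4a lay 0.408 from Sox17, the nearest of all genes ranked, and 4, 4 and 5 of the 5 named genes stayed among the nearest 5 of Sox7, Sox17 and Sox18. By the same measure Sox7 and Sox18 lay 0.591 apart, and 8 of the 16179 other genes tested lay nearer to Sox7 than Sox18 did. Sox17 lay 3.97 from Sox7 and 3.38 from Sox18. The named genes depend on the minimum of counts: at 200 counts in place of 50, 4 of the 5 stayed for Sox7 and 1 of 5 for Sox17 and for Sox18.

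**Figure D5:**
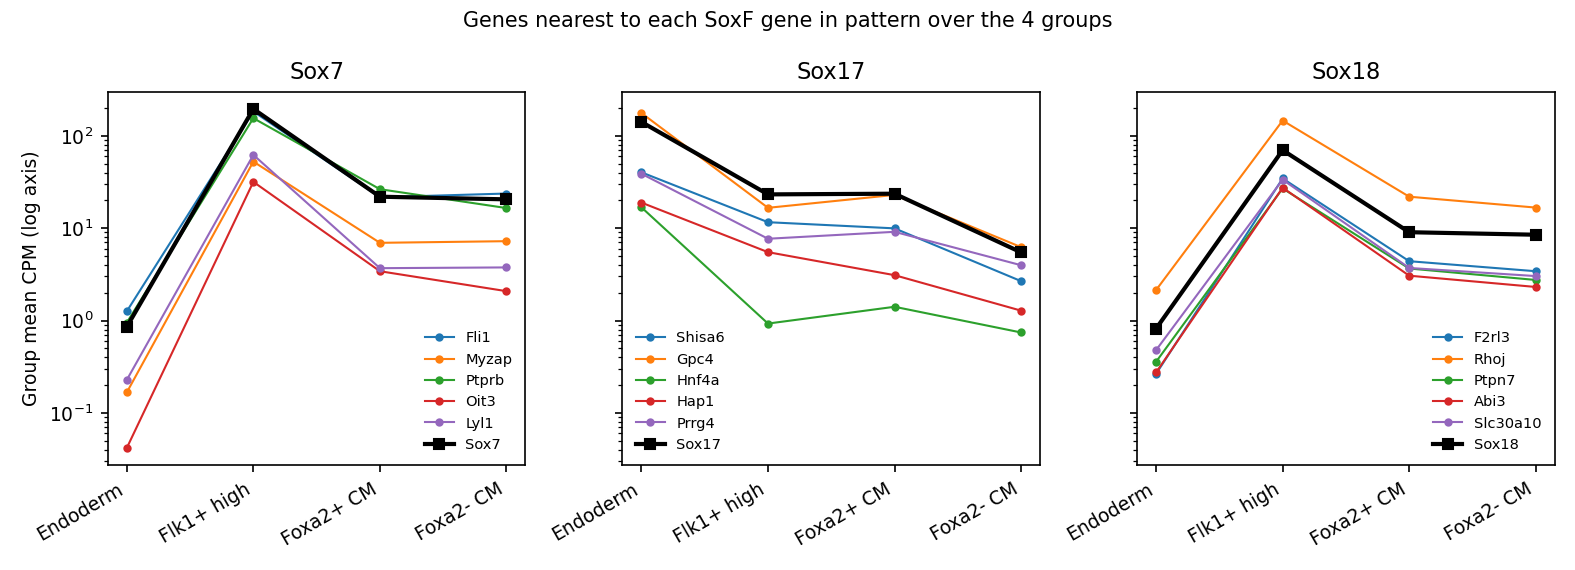
Group mean CPM on a log axis over the 4 sorted groups for each SoxF gene (black squares) and the 5 genes nearest to it in pattern (coloured circles); lines join the groups of a gene to guide the eye and groups have no order. The genes near Sox7 and Sox18 are highest in Flk1+ high and lowest in endoderm, and those near Sox17 are highest in endoderm and lowest in Foxa2- CM.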

How the data were processed

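Sorted cells of the Foxa2-hCD4 mESC line were profiled by RNAseq. The authors aligned 50 nt single-end reads of unstranded TruSeq libraries to mm10 with STAR (version 2.5.0a in the submitters' processing notes), removed duplicates with Picard and counted reads with HTSeq (0.6.0). The deposited values are raw counts of reads on each gene. HTSeq's no-feature and ambiguous rows, equal to 19.5% to 27.8% of reads, were left out.

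GENCODE M21, made for the same build but later than the annotation used by the authors, supplied symbols (37607 identifiers matched), positions and exonic lengths. Counts were scaled by TMM and tested with edgeR (4.0.16, R 4.3.3) after its expression filter, using the quasi-likelihood test with Benjamini-Hochberg adjustment over all genes tested. Comparisons used 1 model of the 10 samples, except that between the CM groups, which used 6. Standard errors were worked back from the F statistic. The nearest genes used a prior count of 2. The test was checked on simulated counts. Alternatives were DESeq2 (1.42.0), other size factors, filters and fold limits, other samples in the fit, a replicate block and leaving out samples.

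The members, lists and tests were chosen with earlier results of these data known. Genes named are the members, every other Sox gene tested, genes of the sort, up to 3 genes each way per list (2 between the CM groups), genes that overlap a member and the 5 nearest genes in pattern. Emcn, Ttr, Afp, Dab2, Apob, Cubn, Lamb1, Lamc1, Col4a1, Vcam1, Efnb2, Eomes, Mixl1, the genes near replicate 3 and Hnf4a's levels were named after their values were seen. No promoter or protein sequence of the members was used here. One list gene is not reported by name here.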

Additional observations from a re-analysis of the deposited data

How the results depend on the processing

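The direction of each member and its side of the 0.05 limit were kept in each comparison under DESeq2, other size factors, other filters on low counts, a 1.5-fold limit and other samples in the fit, apart from those named here and the 2-fold limit for Sox17 in Flk1+ high against CM, where it came to 0.97 to 0.99 under 4 of them. Sox17 in Flk1+ high against Foxa2+ CM, which was not called, turned from -0.02 to 0.06 with the replicate block (edgeR adjusted p = 0.932). Without both CM samples numbered 3, chosen after seeing the data, Sox18 in Foxa2+ CM against Foxa2- CM came to 0.86 with an edgeR adjusted p of 0.00442.

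The number of genes called moved by over 1.5 times as follows. With a mean of at least 50 counts it was 1766 for endoderm against mesoderm (2987 in the fit reported), 1236 for Flk1+ high against CM (1930), 1827, 1670 and 1924 for endoderm against Foxa2+ CM, Foxa2- CM and Flk1+ high, 1246 for Flk1+ high against Foxa2- CM and 259 for the CM groups (460), where fewer genes were tested by construction. Fitting only the groups compared gave 2052 for endoderm against Flk1+ high. For the CM groups it was 187 with all 10 samples in the model, 700 at 1.5-fold, 972 without both samples numbered 3 and 148 to 724 with 1 sample left out, and the cause was not tested.

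With 1 sample left out, the log2 fold changes ranged in endoderm against mesoderm from -6.89 to -5.09 for Sox7 and -5.23 to -3.93 for Sox18. In endoderm against Flk1+ high they ranged from -9 to -7.19 for Sox7 and -7.2 to -5.84 for Sox18. For Sox17 in Flk1+ high against CM they ranged from 0.86 to 1.26. In endoderm against Foxa2+ CM the ranges were -5.89 to -3.72 for Sox7 and -4.28 to -2.99 for Sox18, and against Foxa2- CM -5.79 to -3.34 and -4.21 to -2.22. In Flk1+ high against Foxa2+ CM they were 2.72 to 4.06 for Sox7, -0.16 to 0.07 for Sox17 and 2.37 to 3.34 for Sox18, and against Foxa2- CM 2.82 to 4.44 for Sox7 and 2.44 to 4.15 for Sox18. Between the CM groups they were -0.84 to 1.31 for Sox7, 1.82 to 2.59 for Sox17 and -0.3 to 1.23 for Sox18. The remaining results were the counts of list genes called, the levels and shares of the members, and their nearest genes. With 1 sample left out, 248 values of these results were kept and 28 moved. Under the other alternatives 228 were kept and 30 moved. A count of list genes was taken as moved when it changed by over 1.5 times. Shares could be taken as moved at less. That of Sox18 in Foxa2+ CM was, from 32.5% to 27.8% with the length of transcript Sox17-201.

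The labels number the samples 1 to 3 in the CM groups and 1 to 2 in the others without saying that a number marks a shared culture. Deviations of same-numbered CM samples from their group means correlated at 0.607, 0.0901 and 0.68, and not every sample correlated best with its own number, so they were not taken as pairs. With the replicate block 756 genes were called between the CM groups, with 2 haemato-endothelial genes in place of 0 and 3 pluripotency genes in place of 1, and Sox17 came to 2.11 (edgeR adjusted p = 0.000124), Sox7 to 0.16 (adjusted p = 0.561) and Sox18 to 0.27 (adjusted p = 0.585). Apart from the turn of Sox17 above, the block changed no member's direction or side of the 0.05 limit.

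Depth limits the endoderm values of Sox7 and Sox18, which rest on 4 to 16 counts. Groups of 2 or 3 samples and a library kit without strand limit the rest.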

Other observations

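Pluripotency genes, among them Pou5f1, whose product can pair with Sox proteins on DNA, and the SoxB1 gene Sox2, also differed between endoderm and mesoderm. Of 9 genes 5 were higher in endoderm than in mesoderm and 1 was lower, with a median log2 fold change of 1.6. Nanog was higher by 4.53, Sox2 by 4.12 and Utf1 by 3.8 (edgeR adjusted p = 1.03e-07, 4.71e-07 and 5.19e-07), and Esrrb was lower at -1.52 (edgeR adjusted p = 0.0484). Pou5f1 averaged 112 CPM in endoderm, 30.7 CPM in Flk1+ high, and 31 and 52.6 CPM in Foxa2+ and Foxa2- CM. In endoderm the same samples held the highest Sox17 and the highest Nanog, at a mean of 159 CPM, and whether the same cells held both cannot be told from bulk samples.

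In Flk1+ high against CM 5 of the 9 were lower and 1 was higher, with a median of -1.75, led by Nanog at -2.96 and with Esrrb higher by 1.82 (edgeR adjusted p = 7.08e-05 and 0.0112). Between the CM groups 1 of 9 was called, Nanog, which was lower in Foxa2+ CM at -2.41 (edgeR adjusted p = 0.00132), at a mean of 5.86 CPM against 31.5 CPM in Foxa2- CM. With the replicate number as a block, which called 756 genes in all, 3 of the 9 were called. Without both CM samples numbered 3, where 972 genes were called in all, there were also 3.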
